A study of Mus musculus with 12 samples.

Results

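Long noncoding RNAs (lncRNAs) are transcripts that are spliced and tailed much like messenger RNAs but carry no long reading frame. Those described here are the 83 lncRNA entries, of 12570 in a table of 45777 genes, that had at least 200 read counts in each of 12 mouse liver libraries. The class is that of the deposited table, and RefSeq lists 3 of the 83 as protein-coding. They were selected on these measured counts, over both treatments together, and 4788 lncRNA entries had a count in any library. Just inside the limit were E430024I08Rik, Gm3134 and Peg13, with lowest counts of 206, 208 and 209. Just outside it were 1810026B05Rik, Snhg6 and 4732465J04Rik, with lowest counts of 198, 197 and 194. Since the limit had to be met in every library, lncRNAs that missed it in libraries of only 1 treatment were left out, 20 that met it in each acetaminophen liver and 28 that met it in each vehicle liver.

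The livers came from male C57BL/6 mice aged 10-12 weeks that carried the label WT or the label Gα12-/- (KO), a loss of the G protein subunit encoded by Gna12. Mice of each label received vehicle or acetaminophen (APAP), given after an overnight fast as a single intraperitoneal dose of 300 mg/kg, and livers were taken 6 h later. APAP is a painkiller whose reactive metabolite injures hepatocytes when the dose is excessive. There were 3 livers in each of 4 groups, WT vehicle, WT APAP, KO vehicle and KO APAP, and RNA with poly-A tails was sequenced. The whole liver was used, so fewer cells of a type and less RNA per cell cannot be told apart.

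Total counts ran from 49737950 to 53487025 in the vehicle libraries and from 50422393 to 69566079 in the APAP libraries. Gna12 itself had 2472 to 4003 counts in the 3 KO vehicle livers and 1659 to 3550 in the WT vehicle livers, so the KO label came with no fall in its counts. The study also assayed Gna12 in WT and KO mice by PCR of tail DNA and liver qRT-PCR, and its protein by immunoblot. Whether the sequenced livers were among those is not stated for these assays. Whether the counted region holds the deleted part is not given in the sources used here, and the groups are called by their labels throughout. WT APAP replicate 1 stood apart from the other libraries, with 238212 counts of the globin gene Hba-a1 against at most 7713 elsewhere. WT vehicle replicate 2, with the lowest Gna12 count of its group, is also called a library that stood apart. Its counts differed from those of WT vehicle replicates 1 and 3 by a chi-square per degree of freedom of 348.6 and 483.9. Replicates 1 and 3 of that group differed from each other by 126.3. The 83 lncRNAs together took 0.235 to 0.290% of the counts in vehicle livers and 0.192 to 0.299% in APAP livers, the lowest share being that of WT APAP replicate 1. Summed hepatocyte marker levels lay between 82450 and 116900 CPM (counts scaled to the library's size) in every library, and 1 of these 10 markers was called, Cyp2e1, the enzyme that forms the reactive metabolite, with a log2 fold change of -1.06.

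Several of these RNAs are known for what they carry rather than for what they encode. Small nucleolar RNAs (snoRNAs), which guide chemical modification of ribosomal RNA, and some microRNAs are cut from introns or exons of longer host transcripts. The spliced remainder of a snoRNA host is often translated only briefly and then removed by nonsense-mediated decay, and many such hosts start with a run of C and T bases, as ribosomal protein mRNAs do. Other lncRNAs, such as Neat1 and Malat1, stay in the nucleus, where Neat1 is the scaffold of the bodies called paraspeckles.

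In the RefSeq annotation of GRCm38.p6, which held 81 of the 83 lncRNAs, 10 had a snoRNA gene inside their span. The first bases of the 6 of these that rose with APAP, and of Zfas1 as a host without such a run, are shown because a start with C and T bases is the feature that hosts share by reputation. Each line gives 10 bases before and 20 bases from the annotated start, read 5′ to 3′ on the gene's strand, with capitals marking the run of C and T that covers the start. Where RefSeq has several starts, the one with the longest run is shown.
Snhg1 (chr19:8723477-8723506, plus strand): tcttgtcggCCTCatttttccttgttcggg
2410006H16Rik (chr11:62602867-62602896, plus strand): cgccgTCTTTCTCTgcggccatcatgggat
Snhg12 (chr4:132308668-132308697, plus strand): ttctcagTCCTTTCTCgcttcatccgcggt
1110038B12Rik (chr17:34952449-34952478, minus strand): gcacacgggTCTCTTTgtgcacccgcccac
Gas5 (chr1:161035156-161035185, plus strand): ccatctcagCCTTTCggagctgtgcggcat
Snhg17 (chr2:158361490-158361519, minus strand): aagaccacagTTTCCTgtcgcgtggatgtg
Zfas1 (chr2:167062924-167062953, plus strand): tgcgccccgggcggccgcaggtctcggctg

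A run of at least 5 such bases over the start was found in 7 of the 9 snoRNA-bearing lncRNAs with a promoter entry (77.8%). It was found in 8 of 58 of the other lncRNAs (13.8%), in 21 of 64 genes for cytosolic ribosomal proteins (32.8%) and in 11.8% of all 27025 genes of the promoter table. The run of Snhg1 was 4 bases long and fell under the limit. Snhg8 and 5033421B08Rik, hosts that were not called with APAP, had runs of 7 and 5 bases. The run was thus not limited to hosts that rose. A match is a description of the annotated start and not a measured start site.

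The other hosts in the set carry microRNAs, and their mature sequences are shown with the seed, bases 2 to 8, in capitals. Dleu2 contains the genes for miR-15a and miR-16-1, and Mir22hg contains that for miR-22.
mmu-miR-15a-5p: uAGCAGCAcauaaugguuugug
mmu-miR-16-5p: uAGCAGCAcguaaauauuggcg
mmu-miR-22-3p: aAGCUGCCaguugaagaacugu
The pair from Dleu2 has the same seed, AGCAGCA, and differs from miR-22-3p in it.

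Across all 12 livers, more of the well-expressed lncRNAs were lower with APAP than were higher. In edgeR's quasi-likelihood test with Benjamini-Hochberg adjustment over all 16112 genes tested, 10 of the 83 were higher and 31 were lower in the 6 APAP livers at an adjusted p under 0.05 (genotype label as a term). Those are 12.0% and 37.3% of the lncRNAs, where 14.0% of all genes tested were higher and 11.7% were lower. Of the 8217 protein-coding genes with at least 200 counts in each library, 14.8% were higher and 15.4% were lower. The median log2 fold change was -0.29 over the 83 lncRNAs and 0.01 over all genes tested, and 58 of the 83 values were negative. At an unadjusted p under 0.05 there were 48 (37.4% of all genes). Of the called lncRNAs, 28 kept their call in each of 20 alternative analyses, 5 of the 10 that rose and 23 of the 31 that fell. When single libraries were left out, between 6 and 11 were higher and between 24 and 37 were lower, the count of 37 being without WT APAP replicate 1. In the same fits 1876 to 2615 of all genes were higher and 1309 to 2135 lower, of 16351 to 16474 tested. Without WT vehicle replicate 1, WT APAP replicate 3, KO vehicle replicate 1 or 2, or KO APAP replicate 2, 6 were higher.

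**Figure D1:**
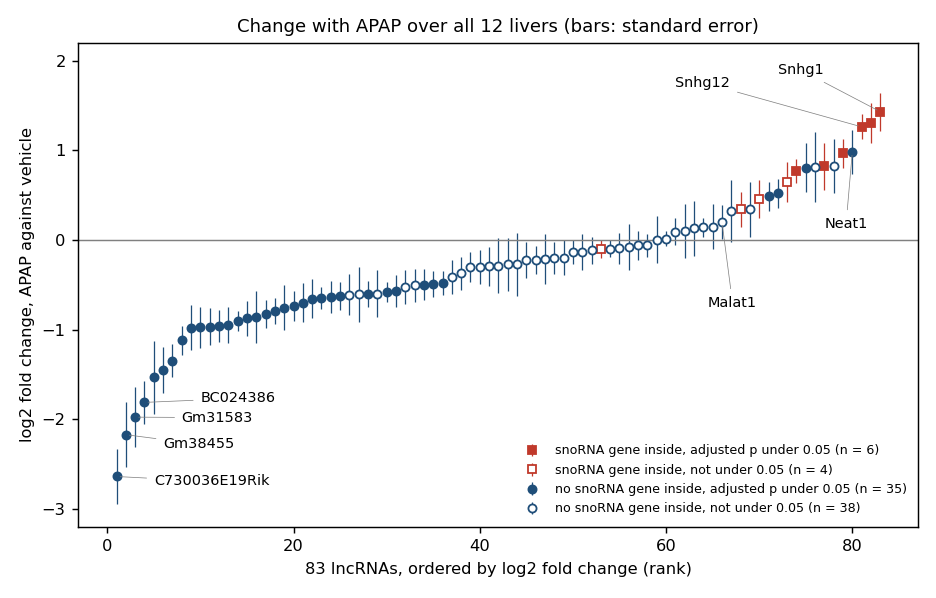
The log2 fold change of APAP against vehicle over all 12 livers is plotted for each of the 83 lncRNAs, ordered by value, with bars for the standard error. Red squares are the 10 lncRNAs with a snoRNA gene inside, filled where the adjusted p was under 0.05 (6), and 9 of these 10 lie above 0, while the falls at the left reach -2.64.

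Most of the lncRNAs that rose hold snoRNA genes. Of the 10 lncRNAs with a snoRNA gene inside, 6 rose, 0 fell and 9 had a positive log2 fold change, with a median of 0.80. Of the other 73, 4 rose and 31 fell, with a median of -0.41. These 73 include the 2 lncRNAs that are not in RefSeq, 1 of them a riser, for which snoRNA genes are unknown. Among protein-coding genes past the same count limit, 56 were higher and 17 lower of 233 that hold a snoRNA gene, against 1155 higher and 1247 lower of 7962 that do not. Among lncRNAs that were tested but missed the count limit, 5 of 23 with a snoRNA gene were higher and 2 were lower. Those 5 were Snhg5, Snhg15, Snhg16, 2700038G22Rik and 4833422C13Rik. These are counts of annotated groups chosen with earlier results known, and no test was made of the groups.

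Snhg1, with 8 snoRNA genes in 2840 bases of chromosome 19, showed the largest rise. Its levels in the 3 WT vehicle livers were 6.83, 6.45 and 7.21 CPM, and in the KO vehicle livers 4.84, 6.13 and 9.97 CPM. With APAP they were 25.0, 11.1 and 23.8 CPM under the WT label and 16.0, 19.9 and 16.1 CPM under the KO label. Each APAP liver thus lay above each vehicle liver, although WT APAP replicate 2 came close to KO vehicle replicate 3. The log2 fold change was 1.43 (SE 0.21, edgeR adjusted p = 0.000458). The coding gene that starts 118 bases away in the opposite direction, Slc3a2, which encodes the heavy chain of amino acid transporters, changed by 1.48 on the log2 scale (SE 0.14, edgeR adjusted p = 1.76e-05).

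Snhg12, with 4 snoRNA genes, had the smallest adjusted p among the 83 lncRNAs. Its vehicle values were 6.27, 6.66 and 5.35 CPM under the WT label and 4.01, 5.45 and 5.48 CPM under the KO label. Its APAP values were 15.7, 10.2 and 13.5 CPM, and 14.7, 13.2 and 12.0 CPM, so that no APAP liver fell within the vehicle range. The log2 fold change was 1.26 (SE 0.14, edgeR adjusted p = 6.39e-05).

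The other hosts that rose are less well known. 2410006H16Rik, which holds Snord49a, Snord49b and Snord65, went from 8.13-13.2 CPM in vehicle livers to 19.6-51.8 CPM in APAP livers (log2 fold change 1.31, SE 0.22, edgeR adjusted p = 0.0011). Its highest value, 51.8 CPM, was that of WT APAP replicate 1. 1110038B12Rik, which holds Snord52, went from 6.25-11.0 to 13.7-21.0 CPM (0.96, SE 0.16, edgeR adjusted p = 0.000839). Its nearest coding gene, Hspa1b, 3958 bases away, encodes an inducible heat shock protein and rose by 5.71 on the log2 scale (edgeR adjusted p = 0.000838). Snhg17, with 2 snoRNA genes, went from 7.00-8.34 to 9.12-15.1 CPM (0.77, SE 0.13, edgeR adjusted p = 0.00111). Snhg1, Snhg12, Snhg17, 2410006H16Rik and 1110038B12Rik were the 5 lncRNAs (6.02%) whose 6 APAP values all lay above the 6 vehicle values, where 7.17% of all genes tested did so.

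Gas5, named for its accumulation in growth-arrested cells, was the most abundant host by level per length. It had a mean of 136 TPM, a level scaled to transcript length and library size, over the 12 livers, with values from 77.8 to 199 TPM. Vehicle values were 42.4, 45.1 and 37.1 CPM under the WT label and 32.3, 38.4 and 73.9 CPM under the KO label, and APAP values were 140, 48.6 and 87.8 CPM and 65.9, 78.4 and 59.5 CPM. The groups overlapped through KO vehicle replicate 3, and the log2 fold change of 0.82 (SE 0.26, edgeR adjusted p = 0.0351) was called in 10 of 20 alternatives, with adjusted p from 0.00577 to 0.0844.

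The 4 remaining risers have no snoRNA gene listed inside them, but D930016D06Rik is not in RefSeq and could not be assessed. They were Neat1, described with the nuclear RNAs, Gm39079 (0.80, SE 0.27, edgeR adjusted p = 0.0472), D930016D06Rik (0.52, SE 0.17, edgeR adjusted p = 0.0373) and Urml (0.49, SE 0.16, edgeR adjusted p = 0.0400). Each of the 4 lost its call in at least 1 alternative.

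The remaining hosts were not called. Snhg8 changed by 0.65 (SE 0.23, edgeR adjusted p = 0.0516), Zfas1 by 0.46 (SE 0.21, edgeR adjusted p = 0.140) and Epb41l4aos by 0.34 (SE 0.20, edgeR adjusted p = 0.238). In each of these the highest CPM value belonged to WT APAP replicate 1. On the TPM scale this held for Snhg8 only. There KO APAP replicate 3 was highest for Zfas1 (33.5 TPM) and Epb41l4aos (31.2 TPM). 5033421B08Rik, which spans 76905 bases with 1 snoRNA gene, was the only one of the 10 with a negative value, -0.10 (edgeR adjusted p = 0.512). Over the 24 RNAs listed as snoRNA hosts by name, 21 were tested, 8 rose and 1 fell, and 7 of the 24 belong to the set of 83. Of all genes tested, 14.0% were higher and 11.7% were lower.

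Entries for the snoRNAs themselves had few counts, since libraries from poly-A RNA do not collect short RNAs without a tail. Snord22, inside Snhg1, had 9 to 31 counts in vehicle and 40 to 124 counts in APAP libraries. Snord12, inside Zfas1, had 4 to 7 and 10 to 26 counts, and Snord49a, inside 2410006H16Rik, had 2 to 6 and 7 to 14 counts. Of the 12 snoRNA entries examined, these 3 were the only ones whose ranges did not overlap between treatments. These are raw counts, and the APAP libraries were mostly larger, so the 3 of 12 cannot be read as a result about snoRNAs. The share of all genes without overlap was not counted on that scale. On scaled CPM, 7.17% of all genes tested were higher without overlap and 5.46% were lower. Reads of the host's unspliced transcript and of the snoRNA cannot be told apart here. Snora24, inside Snhg8, had 1 count in every library.

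**Figure D2:**
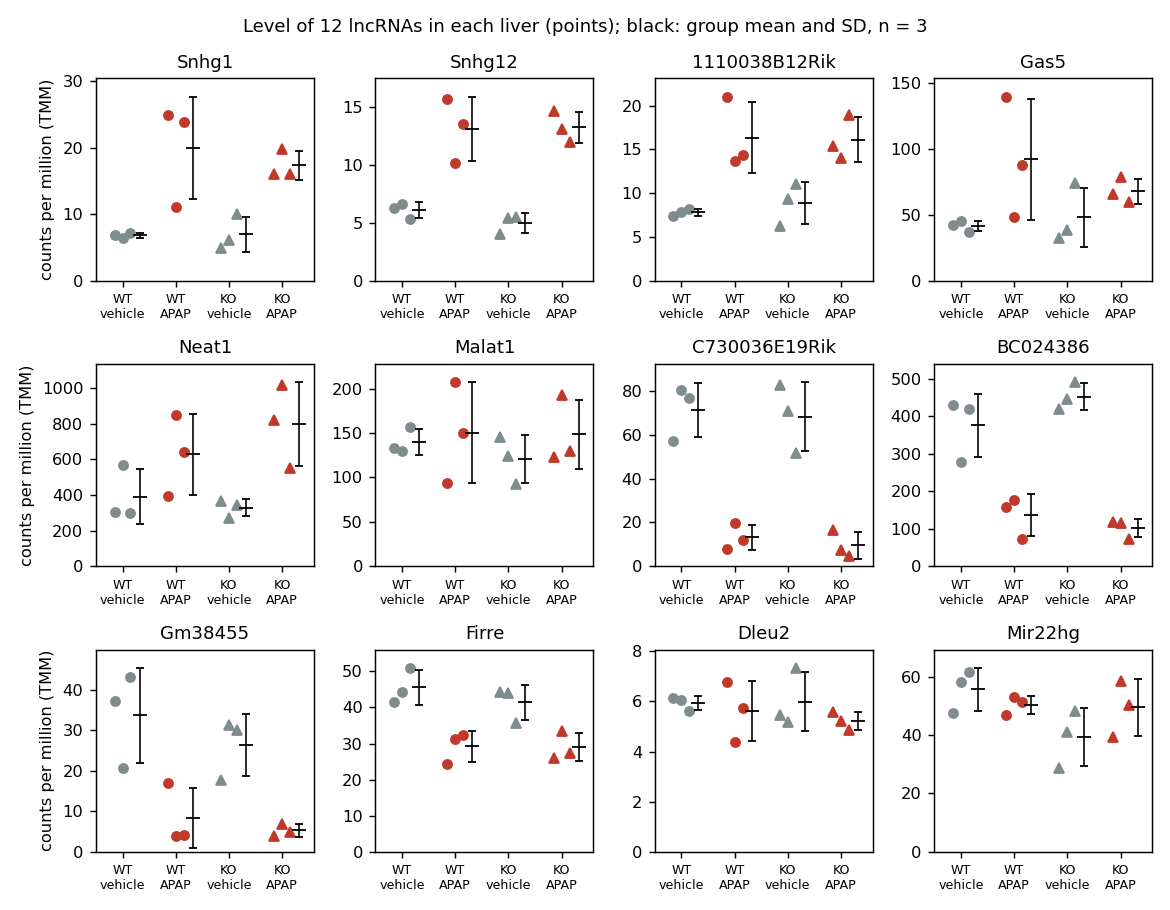
Level of 12 lncRNAs in each liver, in CPM on axes that start at 0, with grey for vehicle, red for APAP, circles for the WT label, triangles for the KO label, and black bars for the mean and SD of 3 livers. Snhg1, Snhg12 and 1110038B12Rik were higher in every APAP liver than in any vehicle liver, C730036E19Rik, BC024386, Gm38455 and Firre were lower in every APAP liver, and the treatments overlapped for Gas5, Neat1, Malat1, Dleu2 and Mir22hg.

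Among nuclear RNAs, Neat1 rose and Firre fell, while Malat1 and Tug1 were not called. Neat1 had 303, 569 and 299 CPM in WT vehicle livers and 368, 273 and 343 CPM in KO vehicle livers. With APAP it had 393, 851 and 640 CPM under the WT label and 822, 1018 and 550 CPM under the KO label. The treatments overlapped through WT vehicle replicate 2, one of the libraries that stood apart, whose value exceeded those of WT APAP replicate 1 and KO APAP replicate 3, while the other vehicle livers lay under every APAP liver. The log2 fold change was 0.98 (SE 0.24, edgeR adjusted p = 0.0101), but on the deposited TPM scale it was 0.41 (limma adjusted p = 0.572). Counts are per gene, so the short and the long transcript of Neat1 are not told apart.

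Malat1, the neighbour of Neat1 on chromosome 19 and a nuclear speckle RNA, changed by 0.20 (SE 0.19, edgeR adjusted p = 0.480), with 92.3 to 156 CPM in vehicle and 93.2 to 207 CPM in APAP livers. Its mature end is protected by a triple helix in place of a poly-A tail, so poly-A libraries sample it incompletely. Tug1 lay at 25.3 to 31.4 CPM in vehicle and 22.3 to 32.1 CPM in APAP livers, with a log2 fold change of 0.01 (SE 0.08, edgeR adjusted p = 0.925) whose sign turned in some alternatives. 2900097C17Rik, which RefSeq calls Norad, an RNA that binds Pumilio proteins, changed by -0.10 (SE 0.09, edgeR adjusted p = 0.480).

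Firre, an X-linked RNA that helps to arrange chromatin, ranged from 35.8 to 51.0 CPM in vehicle livers and from 24.2 to 33.6 CPM in APAP livers, with no overlap. Its log2 fold change was -0.58 (SE 0.11, edgeR adjusted p = 0.00223). Oip5os1, known as Cyrano, which directs the decay of miR-7, fell by 0.48 on the log2 scale (SE 0.13, edgeR adjusted p = 0.0174). The imprinted Peg13 was not called, at 0.14 (SE 0.11, edgeR adjusted p = 0.383).

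The microRNA hosts in the set did not pass the test. Dleu2 had 5.19 to 7.34 CPM in vehicle and 4.38 to 6.77 CPM in APAP livers, a log2 fold change of -0.14 (SE 0.14, edgeR adjusted p = 0.499). Mir22hg had 28.7 to 61.5 CPM in vehicle and 39.3 to 58.6 CPM in APAP livers, a log2 fold change of 0.09 (SE 0.15, edgeR adjusted p = 0.698). For both, the ranges under the treatments overlapped. Entries for Mir15a, Mir16-1 and Mir22 had 0 to 3 counts in every library, so nothing can be said of the mature microRNAs. Of 25 RNAs listed as microRNA hosts, 10 were tested, 2 rose and 1 fell, none of the 3 being among the 83. These few calls can be read against 14.0% higher and 11.7% lower of all genes.

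Falls reached larger sizes than rises. Of the 31 called lower, 8 had log2 fold changes of -1 or less, against 3 of 10 called higher at 1 or more, and 15 (18.1% of the 83) had all 6 APAP values under all 6 vehicle values, where 5.46% of all genes tested did so. C730036E19Rik, an RNA of unknown function at chr1:151138034-151144095 on the plus strand, showed the largest. It had 57.5, 80.5 and 77.0 CPM in WT vehicle and 82.8, 71.0 and 51.7 CPM in KO vehicle livers, against 8.02, 19.6 and 12.0 CPM in WT APAP and 16.5, 7.37 and 4.81 CPM in KO APAP livers. The highest APAP value was well under the lowest vehicle value, and the log2 fold change was -2.64 (SE 0.30, edgeR adjusted p = 7.96e-05).

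BC024386 was the most abundant of the 83 per length, with a mean of 259 TPM over the 12 livers. Its vehicle values were 431, 279 and 418 CPM under the WT label and 420, 446 and 491 CPM under the KO label. Its APAP values were 158, 177 and 71.6 CPM, and 118, 114 and 73.1 CPM. The treatments did not overlap, and the log2 fold change was -1.81 (SE 0.24, edgeR adjusted p = 0.000212).

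Gm38455 fell from 17.7-43.2 to 3.90-17.0 CPM (-2.17, SE 0.36, edgeR adjusted p = 0.000959), its highest APAP value being that of WT APAP replicate 1. It lies over Shld1, a gene of the shieldin complex for DNA end protection, on the opposite strand, and Shld1 changed by -1.48 (edgeR adjusted p = 0.000315). Gm31583 ranged from 24.8 to 95.6 CPM in vehicle and from 7.92 to 25.5 CPM in APAP livers (-1.98, SE 0.33, edgeR adjusted p = 0.000998). Its groups met at WT vehicle replicate 2 and WT APAP replicate 1. Gm33543 ranged from 9.31 to 36.1 and from 4.29 to 22.8 CPM (-1.53, SE 0.40, edgeR adjusted p = 0.0138).

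Ctcflos and Gm36749 lie on the same strand of chromosome 2, at chr2:173124749-173133204 and chr2:173142805-173146667. Ctcflos ranged from 19.2 to 37.6 CPM in vehicle and 7.50 to 13.4 CPM in APAP livers (-1.35, SE 0.18, edgeR adjusted p = 0.000267). Gm36749 ranged from 13.0 to 27.8 and from 3.20 to 12.2 CPM (-1.45, SE 0.26, edgeR adjusted p = 0.00148). Neither overlapped between treatments, and Gm40011, a coding model that overlaps Ctcflos, changed by -0.76 (edgeR adjusted p = 0.0454). 4833411C07Rik ranged from 9.09 to 17.5 and from 4.76 to 8.19 CPM (-1.12, SE 0.17, edgeR adjusted p = 0.000438).

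The next most abundant lncRNAs per length were 0610005C13Rik (161 TPM), Gas5, Ndufb1-ps (131 TPM) and Gm10768 (124 TPM), each as a mean over 12 livers. 0610005C13Rik fell by 0.63 (SE 0.18, edgeR adjusted p = 0.0202). It lies opposite Bcat2, the mitochondrial branched-chain aminotransferase gene, which fell by 0.57 (edgeR adjusted p = 0.00997), and it shares 249 bases at 100% identity with a Bcat2 transcript. The kit marks strand, but the strand setting of the counting is not given in the sources used here, so reads of this pair may not be separated. Ndufb1-ps is a protein-coding gene, Ndufb1, in RefSeq, as are 1810058I24Rik and 0610012G03Rik. None of the 3 was called. For Ndufb1-ps the log2 fold change of 0.13 (edgeR adjusted p = 0.794) turned negative without WT APAP replicate 1. Gm10768 changed by -0.37 (SE 0.18, edgeR adjusted p = 0.147). The least abundant was E430024I08Rik, at 0.868 TPM.

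Position relative to coding genes was examined for the 81 lncRNAs in RefSeq. Of 48 that overlap no coding gene, 7 rose and 16 fell. Of 26 that overlap a coding gene on the opposite strand, 2 rose and 14 fell, and of 6 on the same strand, 0 rose and 1 fell (Ctcflos). For 1 more that overlaps a coding gene the strand was unknown, and it was not called. These counts can be read against 12.0% higher and 37.3% lower of the 83, and 14.0% and 11.7% of all genes. The fold changes of lncRNAs and of the coding genes they overlap were loosely related across 32 pairs (Pearson's r = 0.279, Spearman's rho = 0.107). Across 17 lncRNAs with a coding gene starting within 1000 bases in the opposite direction, r was 0.489 and rho 0.316. These are correlations across genes measured in the same libraries, and genes are not independent replicates. Of 63 lncRNAs with a GENCODE transcript, 19 had a stretch of at least 200 bases with at least 95% identity to a transcript of another gene. Among the called ones these were 0610005C13Rik, Brip1os, D130020L05Rik, Gm14403 and Gm20319, whose counts are uncertain for that reason.

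Promoters, taken as 250 bases before to 50 bases after a start, were searched on both strands for 3 motifs. CACGTG was in 0 of 8 lncRNAs that rose and 2 of 28 that fell (7.14%), against 8.09% of all promoters. TGANTCA was in 0 of 8 and in 3 of 28 (10.7%), against 8.97%. TGACGTCA was in 1 of 8, Gas5, and in 0 of 28, against 2.03%.

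The genotype labels were compared next. In WT livers alone, 3 against 3, 0 lncRNAs were higher and 2 were lower, C730036E19Rik and Ctcflos, in edgeR's quasi-likelihood test (1.62% of 15693 genes tested were higher and 0.427% lower). At an unadjusted p under 0.05 there were 23 in either direction (18.0% of all genes), and DESeq2 called 5 higher and 10 lower, where it called 5.59% of all genes higher and 3.42% lower. Without both libraries that stood apart, 1 was higher and 7 were lower, where 435 of 15903 genes were higher and 196 lower. Leaving out WT vehicle replicate 1 or 3 or WT APAP replicate 3 gave 0 lower, where 1, 0 and 1 of all genes were lower. Leaving out WT APAP replicate 2 gave 4 higher, where 316 of 15831 genes were higher. In livers under the KO label, 9 were higher and 33 were lower (13.0% and 9.60% of 15665 genes tested). At an unadjusted p under 0.05 there were 53 (37.1% of all genes), and both of those called in WT livers were among the 33. Without KO vehicle replicate 2 or without KO APAP replicate 3, 20 were lower, where 734 of 16323 and 751 of 16072 genes were lower.

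The direction was mostly shared between labels. Of the 83 lncRNAs, 64 had the same sign under both, 19 higher and 45 lower, in comparisons that have no liver in common. Across the 83, the fold changes under the labels had r = 0.844 and rho = 0.780, as a description across genes. The change was larger in absolute size under the KO label for 58 of the 83. The median log2 fold change was -0.20 in WT and -0.50 in KO livers. C730036E19Rik changed by -2.43 (SE 0.33, edgeR adjusted p = 0.0164) in WT livers and by -2.83 (SE 0.43, edgeR adjusted p = 0.0039) in KO livers. Snhg1 changed by 1.56 (SE 0.31, edgeR adjusted p = 0.0531) and 1.32 (SE 0.25, edgeR adjusted p = 0.00913), and Snhg12 by 1.12 (SE 0.22, edgeR adjusted p = 0.0525) and 1.42 (SE 0.17, edgeR adjusted p = 0.00151). Of the 10 snoRNA-bearing lncRNAs, 9 had positive values under each label, with 0 called in WT and 5 called in KO livers.

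The difference between labels itself was not shown. In the interaction of label and treatment, edgeR called 0 of the 83 (0% of 16509 genes tested), DESeq2 called 0, and 7 had an unadjusted p under 0.05 (5.14% of all genes). Of the 83 interaction values 59 were negative, with a median of -0.23, or -0.11 without WT APAP replicate 1. The smallest p belonged to 0610005C13Rik, C730027H18Rik, AW112010, Gm32643 and Gm12909, all with edgeR adjusted p = 0.872. AW112010, a transcript linked to inflammation, showed the widest of these, at -1.49 (SE 0.57). It had 20.8, 23.6 and 32.6 CPM in WT vehicle, 63.8, 18.0 and 25.5 CPM in WT APAP, 50.5, 31.7 and 62.7 CPM in KO vehicle and 22.2, 27.7 and 21.5 CPM in KO APAP livers. The high WT APAP value was again that of replicate 1.

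**Figure D3:**
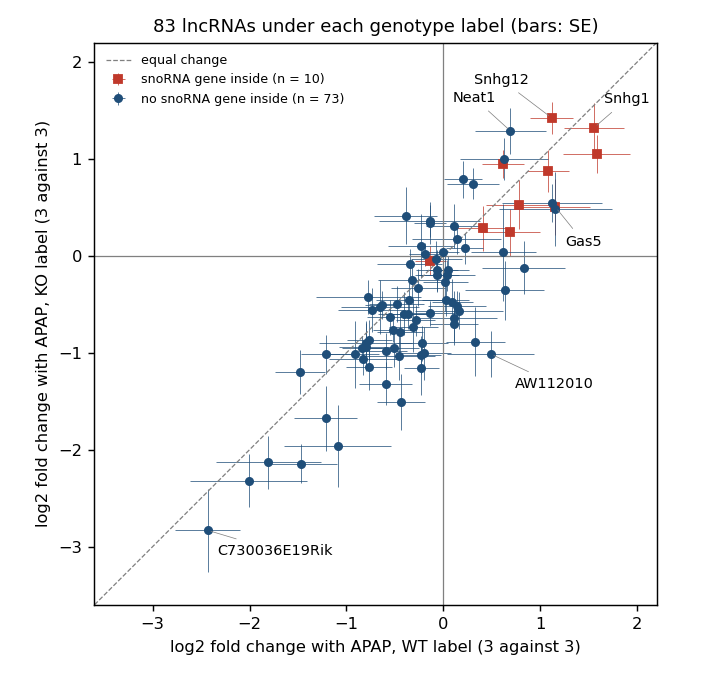
The log2 fold change with APAP under the WT label (horizontal) is plotted against that under the KO label (vertical) for the 83 lncRNAs, 3 livers against 3 in each, with bars for the standard error and a dashed line for equal change. Points run from C730036E19Rik at lower left to Snhg1 and Snhg12 at upper right, and 64 of 83 lie in the lower left or upper right quadrant. For 58 of the 83 the change was larger in absolute size under the KO label.

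Within a treatment, KO and WT labels gave 0 calls among the 83 in either case. In APAP livers, where 0.0309% of 16174 genes were called, 3 lncRNAs had an unadjusted p under 0.05 (3.31% of all genes) and DESeq2 called 1. The smallest p were those of Gm3734 (log2 difference -1.04, SE 0.23) and Gm12909 (-0.86, SE 0.27), both with edgeR adjusted p = 0.958. In vehicle livers, where 0.0262% of 15262 genes were called, 11 had an unadjusted p under 0.05 (7.56% of all genes) and DESeq2 called 1. The smallest p was that of Gm32643, with 12.2, 12.1 and 11.6 CPM in WT and 20.1, 24.2 and 23.4 CPM in KO vehicle livers (log2 difference 0.91, SE 0.12, edgeR adjusted p = 0.0958). The groups of Gm32643 did not overlap, but the adjusted p missed the threshold. In APAP livers 69 of the 83 differences were negative, with a median of -0.29, a median that was -0.09 when WT APAP replicate 1 was left out.

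Genes for the proteins that work with these RNAs were examined over all livers. Of 17 core proteins of snoRNA particles, 12 rose and 0 fell. Nop56 and Nop58, scaffold proteins of box C/D particles, changed by 1.56 (SE 0.13, edgeR adjusted p = 8.62e-06) and 1.56 (SE 0.28, edgeR adjusted p = 0.00157). Gar1, of box H/ACA particles, changed by 1.09 (SE 0.20, edgeR adjusted p = 0.00153) and the assembly factor Nufip1 by 0.85 (SE 0.13, edgeR adjusted p = 0.000646).

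Of 15 paraspeckle protein genes, 6 rose and 0 fell. Taf15 changed by 0.95 (SE 0.14, edgeR adjusted p = 0.000353), Pspc1 by 1.41 (SE 0.31, edgeR adjusted p = 0.00554) and Sfpq by 0.58 (SE 0.15, edgeR adjusted p = 0.0111). Of 15 nonsense-mediated decay factors, 2 rose, the kinase Smg1 (0.51) and the exon junction protein Magoh (0.76), and 1 fell, Smg6 (-0.42). Of 14 microRNA processing factors, Ran rose (0.66) and Ago1 fell (-0.67). Each of these shares of called genes can be read against the 14.0% and 11.7% of all genes.

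**Figure D4:**
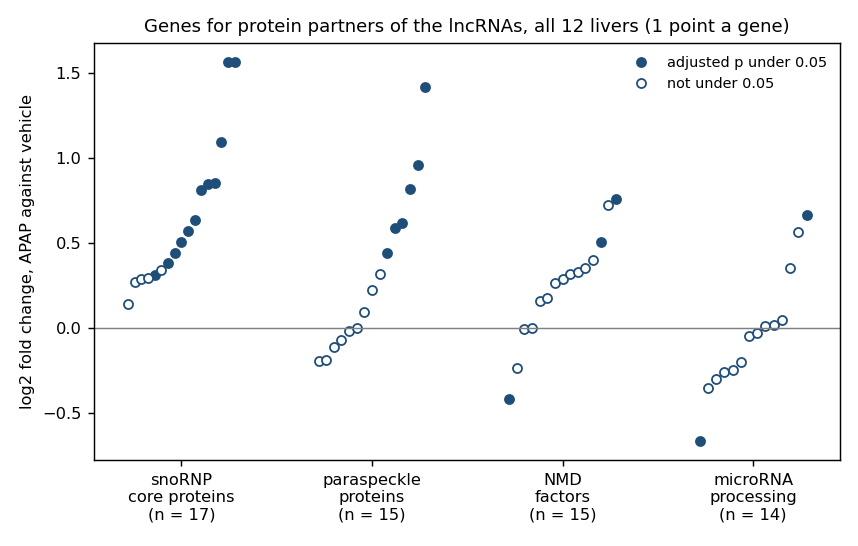
The log2 fold change of APAP against vehicle over all 12 livers is shown for each tested gene of 4 lists of protein partners, filled where the adjusted p was under 0.05. The 17 genes for snoRNA particle proteins all lie above 0, with 12 filled, while the microRNA processing genes lie on both sides with 2 filled.

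The other lncRNA lists and the cell type markers can be read against the same 14.0% higher and 11.7% lower of all genes. Of 4 tested nuclear architecture RNAs, 1 rose and 1 fell (Neat1 and Firre). Of 8 imprinted or X inactivation RNAs tested, 1 rose and 1 fell, of 6 stress and p53 linked RNAs 3 rose and 0 fell, and of 6 liver and nutrient linked RNAs 0 rose and 3 fell. Among markers, 0 of 10 Kupffer and 0 of 9 lymphocyte genes were called. Calls were 3 higher of 10 sinusoidal endothelial, 1 higher and 1 lower of 10 stellate, 2 higher of 5 cholangiocyte, 1 higher of 6 neutrophil and 2 higher of 9 erythroid and platelet genes. Under the KO label alone, 1 endothelial gene was higher and 3 were lower, and 0 stellate genes were higher and 3 were lower. In WT livers alone, 1 endothelial gene was higher and 0 were lower, and 0 stellate genes were called. The summed level of the neutrophil markers was 1.16 to 17.6 CPM in vehicle WT and 13.8 to 97.9 CPM in APAP WT livers, against 1.42 to 2.76 and 1.25 to 9.42 CPM under the KO label, and their part in the results above was not tested.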

How the data were processed

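Total liver RNA was sequenced as paired ends from stranded poly-A libraries. The submitters' processing notes name FastQC 0.11.7, Trimmomatic 0.38, HISAT2 2.1.0, Bowtie2 2.3.4.1, StringTie 2.1.3b and the build mm10 (GRCm38). The strand setting of the counting is not given in the sources used here. The table deposited by the authors holds a read count, an FPKM and a TPM value per gene and library. The FPKM values were not used, and 0 per-sample columns were left unassigned. Counts were tested with edgeR 4.0.16 (TMM scaling, filterByExpr, quasi-likelihood F test) in R 4.3.3, and p-values were adjusted by Benjamini-Hochberg across the genes that passed the filter, with calls made under 0.05. CPM values are TMM-scaled, and fold changes are on the log2 scale. Groups came from the labels, and nothing there says that replicates are more than separate livers, so p-values measure the spread between these samples. Replicates were compared and none was a duplicate.

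The lncRNAs, the gene lists and the tests were chosen with earlier results of these data known. A few genes that the rule below picks are not reported here. Named genes were the members of the lncRNA lists, up to 8 called in each direction with the largest change (4 per single-label comparison), up to 5 by smallest p in the label comparisons and the interaction, the 5 most abundant by TPM, 3 on each side of the count limit, nearest coding neighbours, and up to 4 per protein list by smallest p. The lncRNAs D930016D06Rik and Urml, and those named in counts of 5 or fewer, were added after their values were seen. Alternatives were DESeq2 1.42.0 (size factors or its own test), no filter, at least 10 counts in every sample, limma 3.58.1 on quantile-normalized log2(TPM + 1), a replicate block, no label term, 1 fit for all livers, count limits of 100 and 500, and each library left out. The fit was tested on simulated data. Positions, start and miRNA sequences are from RefSeq (GRCm38.p6), and BLAST 2.17.0 compared transcripts.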

Additional observations from a re-analysis of the deposited data

How the results depend on the processing

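With 3 livers a group and 2 libraries that stood apart, the counts of calls under the WT label are the least settled. With a limit of 100 counts, 53 of 142 lncRNAs (37.3%) were lower under the KO label, against 33 of 83 (39.8%). With a limit of 500 counts, which leaves 26 lncRNAs, 3 were higher and 10 lower over all livers, 1 was lower under the WT label, and 2 were higher and 13 lower under the KO label. Of all genes tested, 14.0% were higher and 11.7% lower over all livers. Under the WT label these shares were 1.62% and 0.427%, and under the KO label 13.0% and 9.60%. DESeq2 called 5 higher and 10 lower under the WT label (5.59% and 3.42% of all genes). Between labels it called 1 lncRNA in APAP livers, where 8 of 16174 genes were higher and 21 lower. It called 1 in vehicle livers, where 75 of 15262 genes were higher and 62 lower. One fit of all 12 livers gave 4 higher and 8 lower under the WT label, where 968 of 16509 genes were higher and 555 lower. With limma on log2(TPM + 1), 3 lncRNAs were higher and 1 lower, where 209 of 15693 genes were higher and 76 lower. Without both libraries that stood apart, an alternative chosen after seeing the data, 1 was higher and 7 were lower under the WT label. Of all 15903 genes in that fit, 435 were higher and 196 lower. The count limits change how many lncRNAs are counted, and for the other alternatives the cause was not tested.

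Leaving out 1 library at a time gave 6 to 11 higher and 24 to 37 lower over all livers. Of all genes, 1876 to 2615 were higher and 1309 to 2135 lower there. Under the WT label it gave 0 to 4 higher and 0 to 3 lower, and 41 to 316 and 0 to 126 of all genes. Under the KO label it gave 6 to 11 higher and 20 to 31 lower, and 1261 to 1967 and 734 to 1401 of all genes. There were 0 calls for either label comparison and the interaction.

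The labels do not say that replicate numbers pair the livers. Correlations of same-numbered libraries, after group means were removed, ran from -0.277 to 0.122. Differently numbered libraries were not compared, so these values cannot decide whether livers were paired. With the replicate number as a block, 7 lncRNAs were higher and 28 lower over all livers, and 1 was lower under the WT label. Of all genes, 1991 of 16509 were higher and 1541 lower over all livers, and 1 of 16377 was lower under the WT label.

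Over all livers, 8 of the 83 lncRNAs changed sign in at least 1 alternative, and none of them was called. Besides 4930581F22Rik, Gm8883, Gm12781 and BC062258, these were Tug1, Mir22hg, Gm27252 and Ndufb1-ps. When each library in turn was dropped, the log2 fold changes of the last 4 ran from -0.012 to 0.070 for Tug1, from -0.018 to 0.15 for Mir22hg, from -0.26 to 0.10 for Gm27252 and from -0.19 to 0.40 for Ndufb1-ps. On the TPM scale Tug1 had -0.055. Without both libraries that stood apart, Gm27252 had 0.12 and Ndufb1-ps had -0.17.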

Other observations

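The deposited TPM and count values of Neat1 moved apart between livers. WT vehicle replicates 1 and 3 had nearly the same count level, 303 and 299 CPM, but 26.0 and 128 TPM. The ratio of TPM to CPM of Neat1 was 6.51 times as high in the library where it was highest as in the one where it was lowest, the widest of the 83 lncRNAs, whose median was 1.98. How the TPM values of Neat1, which has a short and a long transcript, were summed is not given in the sources used here.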
